A study of Mus musculus with 2 samples.

Results

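The Hox genes are the 39 protein-coding genes of the mouse genome (mm9, GENCODE vM1 annotation) whose symbol is Hoxa, Hoxb, Hoxc or Hoxd followed by a number, out of 22219 protein-coding symbols with an annotated transcriptional start site (TSS). They lie in 4 clusters, with 11 genes in Hoxa, 10 in Hoxb, 9 in Hoxc and 9 in Hoxd. Chromatin of E14 cells, a line of mouse embryonic stem (mES) cells that was cultured in medium with serum and LIF, was sonicated and precipitated with anti-ZNF322 antibody (the Zfp322a library) or with anti-rabbit IgG (the IgG library). The labels give C57BL/6 as the background strain of both libraries, which carry no other treatment or genotype. With 1 library for each antibody there is no replicate check: every interval and test given here compares these libraries and not conditions, and intervals cover counting error only. Only reads whose mapping quality was 25 or more were used, 4148324 in the Zfp322a library and 3875599 in the IgG library (a ratio of 1.07). At the Hox genes 99.7% of the deposited reads of either library passed this limit, against 80.0% of all reads of each library.

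Hox proteins are homeodomain transcription factors that give cells of the embryo their position along the body axis. Within a cluster the genes stand in the order in which they are used, from genes of low number, which act early and towards the head, to genes of high number, which act late and towards the tail and the ends of the limbs. Their promoters are rich in CG dinucleotides, and in ES cells the clusters are known as large domains of Polycomb proteins in which the genes are held silent until differentiation. Zfp322a is a zinc finger protein of ES cells. Expression was not analysed here, so whether the genes were silent in these cells is not shown by the libraries. The comparison set was therefore named by what its genes do: housekeeping genes of the ribosome, proteasome, RNA polymerases, respiratory chain, translation, splicing and tRNA charging. It also holds Mediator, TFIID and chaperonin genes, taken by the symbols Med, Taf or Cct and a number.

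Promoters at the extremes of the values are shown over the 250 bases before the TSS, 5′ to 3′ on the strand of the gene (mm9), with CG dinucleotides in capitals. Of the Hox genes, Hoxd11 (chr2:74519806-74520055, plus strand) had the highest fold of Zfp322a over IgG and Hoxa3 (chr6:52122649-52122898, minus strand) the lowest. Psmd3 (chr11:98543618-98543867, plus strand), which encodes a subunit of the proteasome lid, had the most Zfp322a reads of the housekeeping genes.
Hoxd11: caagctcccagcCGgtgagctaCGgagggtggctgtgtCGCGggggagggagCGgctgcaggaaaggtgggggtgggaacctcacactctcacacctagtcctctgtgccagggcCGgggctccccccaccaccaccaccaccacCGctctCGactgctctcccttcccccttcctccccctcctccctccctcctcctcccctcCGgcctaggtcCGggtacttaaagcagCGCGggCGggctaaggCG
Hoxa3: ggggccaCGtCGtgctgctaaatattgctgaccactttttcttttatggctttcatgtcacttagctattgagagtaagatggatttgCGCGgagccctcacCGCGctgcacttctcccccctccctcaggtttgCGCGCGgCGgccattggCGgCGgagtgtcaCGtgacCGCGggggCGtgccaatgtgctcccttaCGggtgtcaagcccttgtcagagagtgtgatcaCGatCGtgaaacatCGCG
Psmd3: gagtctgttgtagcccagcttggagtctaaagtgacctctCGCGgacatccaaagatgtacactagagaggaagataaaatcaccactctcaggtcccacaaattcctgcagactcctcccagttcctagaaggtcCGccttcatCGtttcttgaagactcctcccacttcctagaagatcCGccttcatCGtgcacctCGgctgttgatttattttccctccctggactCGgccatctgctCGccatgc
These stretches hold 14 CG dinucleotides at Hoxd11, 21 at Hoxa3 and 9 at Psmd3, and their GC content is 69.2%, 57.6% and 51.6%. Psmd3 is not typical of its set in this: over 250 bases before to 50 bases after the TSS, the median was 23 CG dinucleotides at the housekeeping genes and 16 at the Hox genes.

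The Hox promoters were GC-rich. The window of -1000 to +1000 bp around the TSS had a median GC content of 55.9% over the 39 Hox genes, from 44.9% at Hoxb4 to 68.2% at Hoxd8, against 51.02% over all other protein-coding genes. The ratio of observed to expected CG dinucleotides had a median of 0.591, against 0.454 over the other protein-coding genes. Housekeeping genes were compared within the GC range of the Hox windows (the 10th to the 90th percentile, 50.3% to 63.3%), which left 249 genes with a median GC content of 53.4% and a CG ratio of 0.672.

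Summed over the Hox genes and scaled by library totals, the libraries did not differ per read beyond counting error. Each Hox window held 1 to 18 Zfp322a reads (median 9, mean 9.03 ± 3.62, SD over 39 windows) and 3 to 19 IgG reads (median 9, mean 8.72 ± 3.73), so the values of the libraries overlapped over nearly their whole range. A total of 20 of the 39 windows had the higher value per read in the Zfp322a library. Summed over the windows, with reads in the overlap of Hoxb7 and Hoxb8 counted once, 351 Zfp322a reads stood against 337 from IgG, and the fold per read was 0.973 (exact 95% interval 0.836 to 1.13). Housekeeping windows in the same GC range held 6139 against 3330 reads, a fold of 1.72 (1.65 to 1.797).

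**Figure D1:**
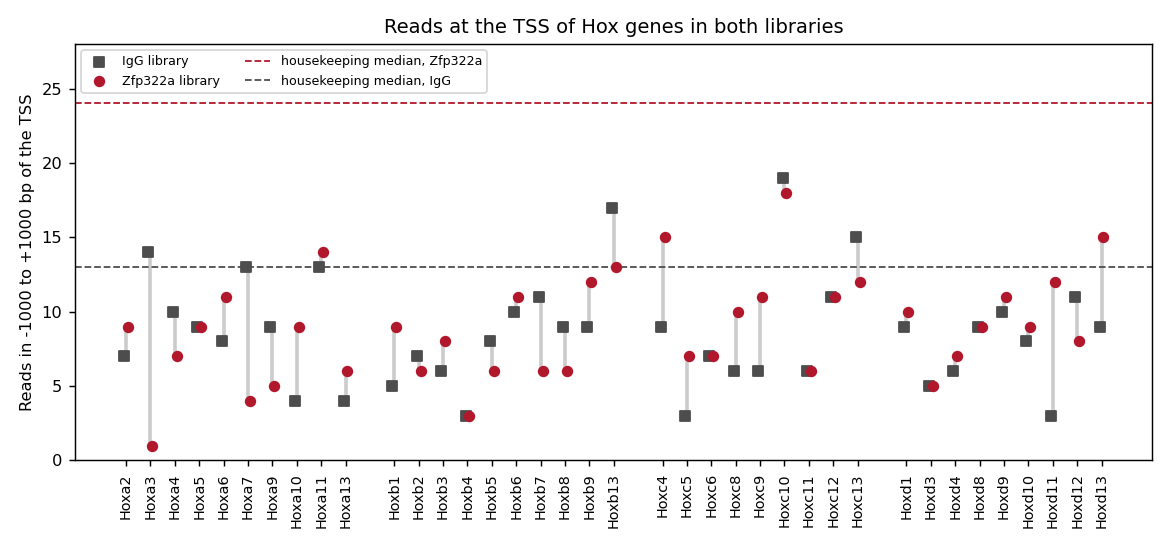
Reads of mapping quality 25 or more in -1000 to +1000 bp of the TSS of 38 of the 39 Hox genes (y axis, count; 1 gene is not reported here), ordered by cluster and gene number, with the Zfp322a library as circles and the IgG library as squares. Dashed lines give the housekeeping medians of 24 Zfp322a and 13 IgG reads: all plotted Zfp322a values lie below their line, and Hoxa3 has the widest gap between libraries, with 1 against 14 reads.

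The fold at the Hox genes was 0.565 times that at the housekeeping genes (exact interval of the ratio of folds 0.482 to 0.662), a comparison in which the library totals cancel. Both libraries were lower at the Hox genes. Per base, the Zfp322a density at the Hox windows was 36.5% of that at the housekeeping windows, and the IgG density was 64.5%. The highest Hox value in the Zfp322a library was 18 reads, which 185 of the 249 housekeeping windows (74.3%) exceeded, and 38 of the 39 Hox windows lay under the lower quartile of the housekeeping windows, also 18 reads. In the IgG library 29 housekeeping windows (11.6%) exceeded the highest Hox value of 19 reads. Psmd3 had 67 Zfp322a and 12 IgG reads, a fold of 5.22 (2.80 to 10.6). Eif2b4, a subunit of the exchange factor of translation initiation, had 63 and 18 reads. Atp5g2, a subunit of the mitochondrial ATP synthase, had 60 and 19. The highest folds of the set were 11.5 at Ndufb2 (37 and 3 reads), a subunit of respiratory complex I, 7.47 at Psma3 (40 and 5), a subunit of the proteasome core, and 6.35 at Eif5b (34 and 5), a translation initiation factor.

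**Figure D2:**
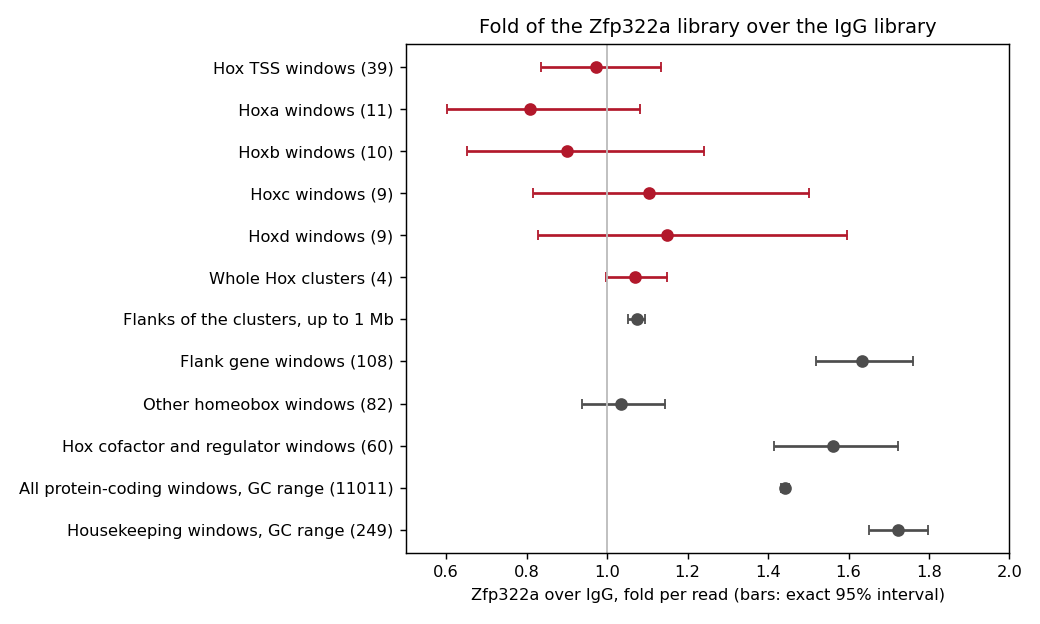
Fold of the Zfp322a library over the IgG library per read (x axis) with exact 95% intervals as bars, for the Hox windows, the clusters, their surroundings and the comparison sets; the number of windows or clusters stands in brackets. The Hox windows (0.973) and the other homeobox genes (1.04) lie at 1, and the housekeeping windows lie at 1.72.

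By the height and fold limits of the study, a putative binding site reaches a height of 9 or more Zfp322a reads, each extended to 300 bp, and 3 or more times the IgG height. The strand test that the study also used to filter peaks was left out here, so these sites are not its peak list. None of the 39 Hox windows held such a site, where 11% of all 22219 protein-coding windows did and 78 of the 249 housekeeping windows (31.3%) did. Peak heights at the Hox genes reached 7 reads in the Zfp322a library, at Hoxc9, and 7 in the IgG library, so the minimal height was not reached at any of them. When the minimal height was lowered to 6 reads, stretches at Hoxc4 (6 Zfp322a against 1 IgG, chr15:102864866-102864904) and Hoxc12 (6 against 2, chr15:102767477-102767578) met the fold. These are 2 of 39 Hox windows (5.13%), where 16.9% of all protein-coding windows and 30.92% of the housekeeping windows did so. At the lower height stretches are longer and are joined more often, and the highest IgG height within each counts for its fold, so a window can lose its call.

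Of the 38 Hox windows with at least 10 reads of both libraries together, 8 had a fold of at least 1.5 in favour of Zfp322a (background 42.8% of 15727 windows) and 6 had it in favour of IgG (background 8.88%). The shares are 21.1% and 15.8%. Each tested window rested on 10 to 37 reads, and the intervals of 11 of these 14 folds hold 1. In the exact binomial test, adjusted by Benjamini-Hochberg over the 15727 windows, 0 Hox windows were higher in the Zfp322a library (background 4.92%, with 1 Hox window, Hoxd11, at an unadjusted p under 0.05) and 1 was higher in the IgG library (background 0.0636%, 10 windows of the genome, with 2 Hox windows, Hoxa3 and Hoxa7, at an unadjusted p under 0.05). Of the 248 housekeeping windows tested, 24 (9.68%) were higher in the Zfp322a library. Housekeeping windows held more reads, with medians of 24 Zfp322a and 13 IgG reads against 9 and 9 at the Hox genes. The same fold therefore passes the test more easily at the housekeeping windows.

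The Hox window called higher in IgG was Hoxa3, an anterior gene with roles in the pharyngeal arches and the thymus. Its window had 1 read in the Zfp322a library and 14 in the IgG library, a fold of 0.0667 (0.00158 to 0.439, adjusted p = 0.0148 by the exact binomial test with Benjamini-Hochberg adjustment). GENCODE has 2 entries for Hoxa3 and several starts. At the most upstream protein-coding start, 40.7 kb away, the window held 6 Zfp322a reads and 1 IgG read and was not tested, since it held fewer than 10 reads. In windows of -500 to +500 bp the adjusted p at the first start was 0.0715, and in windows of -2000 to +2000 bp it was 0.0840. The start of the lincRNA Gm15050, on the other strand, lies in the Hoxa3 window, and its own window held 2 Zfp322a and 12 IgG reads, most of them therefore the same reads.

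Among the genes of low number (groups 1 to 4, anterior), Hoxb1, which specifies a segment of the hindbrain, had 9 Zfp322a and 5 IgG reads, and Hoxd1 had 10 and 9. Hoxc4 had 15 and 9 reads, a fold of 1.56 (0.638 to 4.04). Hoxa4 had 7 and 10. Hoxb4, known for its part in blood stem cells, had 3 reads in each library and Hoxd3 had 5 in each, among the lowest sums of the family. Over the 12 windows of these groups, 94 Zfp322a and 93 IgG reads gave a fold of 0.944 (0.701 to 1.27).

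In groups 5 to 9 (central), which pattern the trunk, the windows with the larger differences went both ways. Hoxa7 had 4 Zfp322a and 13 IgG reads, the lowest fold of the family after Hoxa3 at 0.287 (0.0683 to 0.931), with an adjusted p of 0.196 in the exact test. Hoxa9, a gene of blood progenitors and the posterior trunk, had 5 and 9, Hoxb7 had 6 and 11, and Hoxb8 had 6 and 9. The TSSs of Hoxb7 and Hoxb8 lie 1532 bp apart, so their windows share reads. In the other direction Hoxc5 had 7 and 3, Hoxc8 had 10 and 6, and Hoxc9 had 11 and 6. The 15 windows together held 124 reads in each library, a fold of 0.934 (0.722 to 1.21).

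The genes of groups 10 to 13 (posterior), which pattern the lumbosacral region, the limbs and the genital tract, included the window with the most reads. Hoxc10 had 18 Zfp322a and 19 IgG reads, the highest value of the family in each library, with a fold of 0.885 (0.438 to 1.78). Hoxd13, which shapes the digits, had 15 and 9, Hoxa11 had 14 and 13, Hoxb13, a gene of the tail and prostate, had 13 and 17, and Hoxc13, a gene of hair and nails, had 12 and 15. Hoxa13 had 6 and 4 and Hoxc11 had 6 in each library, although the GC content of the Hoxa13 window, 67.2%, was among the highest. Hoxa10, a gene of the uterus and hindlimb, had 9 and 4. The highest fold was at Hoxd11, with 12 and 3 reads, 3.74 (1.01 to 20.6, adjusted p = 0.234 in the exact test). The 12 windows held 133 and 120 reads, a fold of 1.04 (0.803 to 1.34). The folds of the groups did not differ beyond counting error: anterior over posterior was 0.912 (0.614 to 1.36), central over posterior 0.902 (0.626 to 1.30) and anterior over central 1.01 (0.679 to 1.504).

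In group 13, the 4 genes ranged from 6 to 15 Zfp322a reads and from 4 to 17 IgG reads. Differences between genes of the same number were not tested. By cluster, the windows held 89 Zfp322a and 103 IgG reads at Hoxa (fold 0.807, 0.601 to 1.08), 79 and 82 at Hoxb (0.900, 0.652 to 1.24), 97 and 82 at Hoxc (1.11, 0.815 to 1.502) and 86 and 70 at Hoxd (1.15, 0.827 to 1.60). All 4 intervals hold 1 and overlap each other.

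Over the 5000 bp on either side of the TSS, the housekeeping genes had a peak at the start site in both libraries, and the Hox genes had a low, broad rise. Within 250 bp of the TSS the Hox genes had 4.82 Zfp322a and 4.10 IgG reads per kb and gene, a fold of 1.10 (0.806 to 1.498). Housekeeping genes had 22.6 and 10.8, a fold of 1.96 (1.84 to 2.09). Relative to the outer parts of the same profile, the density near the start was 1.498 times as high in the Zfp322a library and 1.48 times as high in the IgG library at the Hox genes. At the housekeeping genes these values were 5.88 and 3.54.

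**Figure D3:**
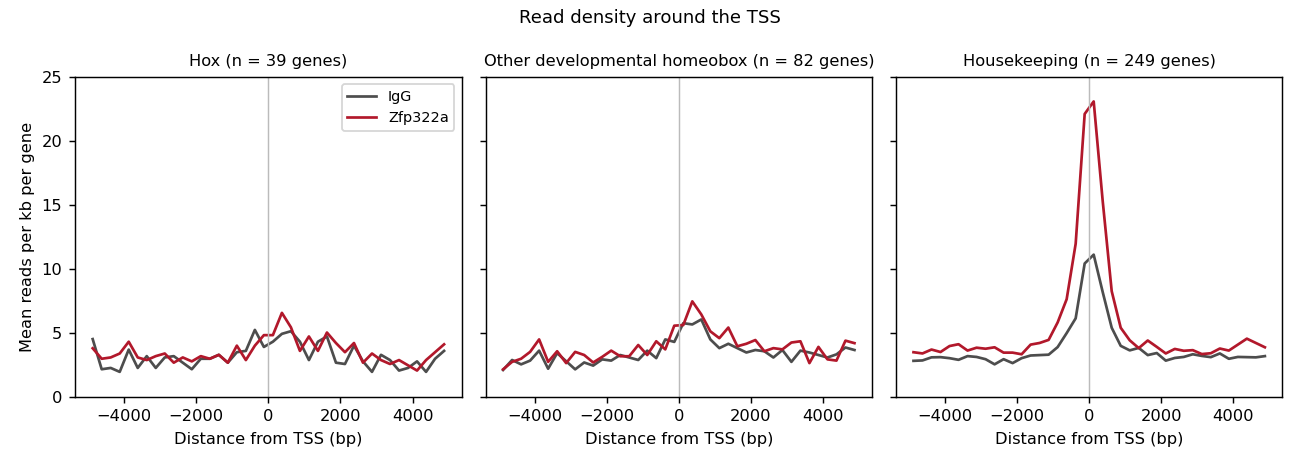
Mean reads per kb per gene (y axis) in 250-bp bins by distance from the TSS (x axis, bp), for the Hox genes, other developmental homeobox genes and housekeeping genes; the last 2 sets are within the GC range of the Hox windows. The Hox lines of both libraries run together with a highest bin of 6.56 in the Zfp322a library, while the housekeeping lines reach 23.1 and 11.1.

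Other developmental homeobox genes were taken from a list of families outside the clusters, such as Lhx, Nkx and Dlx, with the Pax genes included. These genes had a fold near that of the Hox genes and slightly more reads. In the same GC range, 82 of them held 851 Zfp322a and 768 IgG reads, a fold of 1.04 (0.938 to 1.14), with a mean of 10.4 and 9.37 reads per window. The Hox fold was 0.940 times theirs (0.783 to 1.13), an interval that holds 1. Per base, the Zfp322a density at the Hox windows was 0.872 times theirs (0.768 to 0.989) and the IgG density 0.928 times (0.814 to 1.06). A putative site was found at 2 of the 82 (2.44%, against 11% of all protein-coding windows and 16.7% of those in the GC range), Mnx1, a gene of motor neurons and pancreas, and Pax6, a gene of the eye and forebrain. Lhx5 and Pax8 were among the windows with the most Zfp322a reads, 23 each, with 14 and 12 IgG reads. Nkx2-2 (9 and 2 reads) and Cdx4 (16 and 5) were among those with the highest folds, and none of the 82 windows passed the exact test after adjustment.

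Genes whose products act on or with Hox genes were taken from a list of 60. They held 1091 Zfp322a and 653 IgG reads, a fold of 1.56 (1.42 to 1.72), and the Hox fold was 0.623 times theirs (0.520 to 0.748). A putative site was found at 11 of them (18.3%, against 11% of all protein-coding windows and 16.7% of those in the GC range; their median GC content was 58.1%). Of 57 tested, 4 (7.02%, against 4.92% of all windows tested) passed the exact test with more Zfp322a reads, a share near the background. These 4 were Rbbp4 (43 Zfp322a and 13 IgG reads, adjusted p = 0.00810), Suz12 (35 and 9, adjusted p = 0.0103), Rbbp7 (22 and 5, adjusted p = 0.0399) and Mll5 (41 and 15, adjusted p = 0.0317), by the exact binomial test with Benjamini-Hochberg adjustment over all windows. Suz12, Rbbp4 and Rbbp7 encode subunits of Polycomb complex PRC2, which methylates histones over silent Hox genes, and Mll5 encodes a protein of the Trithorax-related family. By role, the fold was 1.71 (1.49 to 1.98) at the 30 Polycomb genes and 1.44 (1.19 to 1.76) at the 12 Trithorax genes. It was 1.34 (1.01 to 1.78) at the 9 genes of the Pbx, Meis and Pknox families, which bind DNA together with Hox proteins. At the 9 retinoic acid receptor and Cdx genes it was 1.48 (1.13 to 1.95). These intervals overlap each other. Folds were highest at Yaf2 (14 and 3 reads), which encodes a partner of PRC1, Ezh1 (9 and 2), which encodes a histone methyltransferase of PRC2, and Rbbp7. Yaf2 and Ezh1 rest on few reads, with intervals of 1.22 to 23.7 and 0.870 to 40.0. Their adjusted p was 0.138 and 0.314 in the exact test. Cdx4, a homeobox gene that acts upstream of the clusters, had a fold of 2.99 with an adjusted p of 0.203 in the exact test.

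Over whole clusters, from the first to the last base of the member genes, 1642 Zfp322a and 1434 IgG reads were found, a fold of 1.07 (0.996 to 1.15). Hoxa (chr6:52105366-52210874) held 367 and 362 reads, a fold of 0.947 (0.817 to 1.10). Hoxb (chr11:96055630-96229570), the longest at 174 kb owing to the distance between Hoxb13 and Hoxb9, held 582 and 459, a fold of 1.18 (1.05 to 1.34). Hoxc (chr15:102751534-102867274) held 397 and 343, a fold of 1.08 (0.933 to 1.25), and Hoxd (chr2:74506367-74603200) held 296 and 270, a fold of 1.02 (0.866 to 1.21). The interval of Hoxb was the only one of the 4 above 1. The sequence around Hoxb, up to 1 Mb on either side, had a fold of 1.15 (1.11 to 1.19) and chromosome 11 as a whole 1.07, and relative to its surroundings the Hoxb fold was 1.03 (0.909 to 1.18). The folds of the other chromosomes with a cluster were 0.999 on chromosome 6, 0.994 on chromosome 15 and 1.03 on chromosome 2. Over the genome they ran from 0.507 on chromosome Y and 0.760 on chromosome 8 to 1.32 on chromosome X.

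No cluster held a stretch with a Zfp322a height of 9 reads or a region deposited by the authors as a peak. The heights reached 6 reads in Hoxa, 7 in Hoxb, 7 in Hoxc and 6 in Hoxd in the Zfp322a library, and 8, 6, 7 and 5 in the IgG library. In 2-kb bins, 247 in all, the median was 6 reads in each library. The highest bins held 18 Zfp322a reads, against 10 IgG reads in Hoxb and 8 in Hoxc, and 16 IgG reads. The bins with 16 IgG reads held 1 Zfp322a read at the TSS of Hoxa3, 10 elsewhere in Hoxa and 6 in Hoxc.

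**Figure D4:**
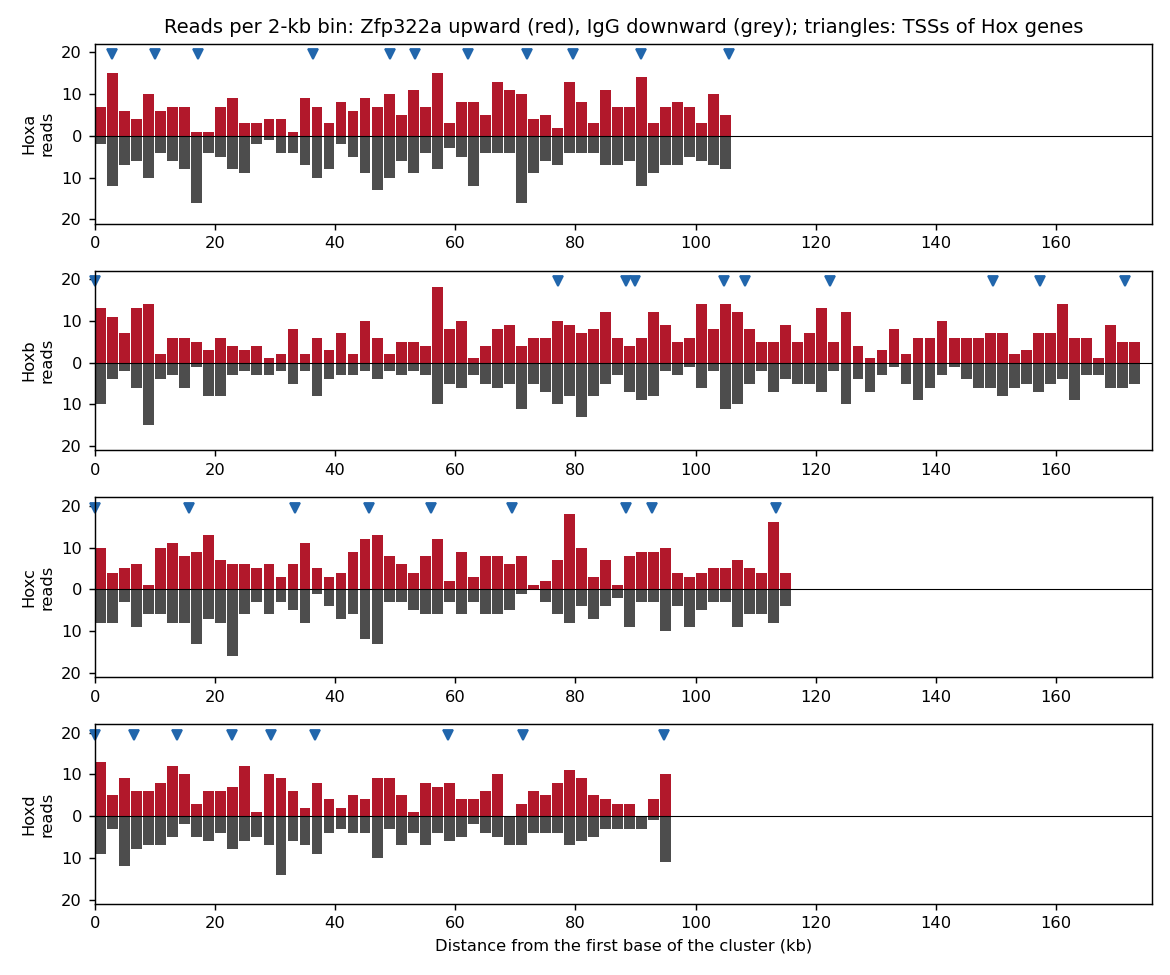
Reads per 2-kb bin (y axis, count) along each Hox cluster (x axis, kb from its first base), with the Zfp322a library drawn upward and the IgG library downward; triangles mark TSSs of the Hox genes, and the last bin of each cluster is shorter than 2 kb. Bins reach 18 Zfp322a and 16 IgG reads.

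Inside the clusters, exons held 4.34 Zfp322a and 3.69 IgG reads per kb, introns 3.23 and 2.82, and the sequence between protein-coding genes 2.88 and 2.57. The folds were 1.10 (0.959 to 1.26), 1.07 (0.949 to 1.21) and 1.05 (0.928 to 1.18), and the GC content fell in the same order from 53.0% through 49.2% to 47.3%. Outside the TSS windows the clusters held 1309 and 1122 reads, a fold of 1.09 (1.01 to 1.18), and the surroundings of the clusters had a fold of 1.07 (1.05 to 1.10). A further 28 annotated genes start inside the clusters, among them antisense RNAs, lincRNAs and microRNA genes, with 0 to 20 Zfp322a reads and 2 to 17 IgG reads in their windows and a median of 6 in each. Of these, 5 start within 1000 bp of a Hox TSS and share its reads, and the other 23 reached 18 and 15 reads. Among the 23, the windows of Mir10b, Mir615, Gm15051, Gm20440, Gm11536 and Hoxa11as also overlap a Hox window. Their starts lie 1004 to 1821 bp from a Hox TSS, so they can share reads as well. Hoxb3os, antisense to Hoxb3, had 14 and 5. Hoxa11as had 7 and 6. The windows of Mir10a, Mir10b, Mir196b, Mir196a-1, Mir196a-2 and Mir615, microRNA genes whose mature products include regulators of Hox mRNAs, had 4 to 13 Zfp322a and 3 to 12 IgG reads.

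The Hox windows also had a lower fold than the promoters around the clusters. Of the protein-coding genes within 1 Mb of a cluster, 108 held 1977 Zfp322a and 1130 IgG reads, a fold of 1.63 (1.52 to 1.76), and 18 of them (16.7%) had a putative site. All other protein-coding windows of the genome had a fold of 1.39 and those in the GC range 1.44, with a site at 10.97% and 16.7%. In the GC range, 15 of 68 genes around the clusters (22.1%) had a site. The Hox fold was 0.595 times that of the 108 genes (0.502 to 0.706), and the ratio was under 1 at each cluster: 0.506 at Hoxa, 0.625 at Hoxb, 0.621 at Hoxc and 0.611 at Hoxd. Against the 68 genes in the GC range it was 0.587 (0.492 to 0.701), and at Hoxd, with 7 such genes, it was 0.679 with an interval that holds 1 (0.434 to 1.06). The windows with the most Zfp322a reads were those of Pcbp2, an RNA-binding protein gene 450 kb from Hoxc, with 120 Zfp322a and 10 IgG reads, Atp5g2 with 60 and 19, and Nfe2l2, a stress-response transcription factor gene 939 kb from Hoxd, with 55 and 20. Folds were highest at Pcbp2 (11.2), Hnrnpa3 (22 and 3 reads, fold 6.85) and Atp5g3 (29 and 7, fold 3.87). Within 100 kb of a cluster lay 8 of these genes, with 5 to 19 Zfp322a and 7 to 19 IgG reads and no putative site. Evx2, 8.75 kb from Hoxd, had 5 and 10 reads and Evx1, 52.6 kb from Hoxa, had 5 and 7; both encode homeodomain proteins related to those of the clusters. Gm17649, whose start lies 0.283 kb from that of Hoxc13 and whose window shares its reads, had 9 and 14. Near Hoxb, Ttll6 had 8 Zfp322a and 9 IgG reads, Calcoco2 had 8 in each library and Skap1 had 9 and 13, and Mtx2 near Hoxd had 15 and 11. Lnp, 89.4 kb from Hoxd, had 19 in each library, above the highest Zfp322a value of the Hox genes. Skap2, farther out at 143 kb from Hoxa, had 21 and 7, a fold of 2.80 (1.15 to 7.80). Its adjusted p was 0.138 in the exact test, and its window held no putative site.

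Against the sequence around them, 2 clusters had more reads in both libraries. The density in Hoxa was 1.65 times that of its surroundings in the Zfp322a library (1.48 to 1.84) and 1.68 times in the IgG library (1.51 to 1.87). In Hoxd it was 1.77 times (1.57 to 1.99) and 1.69 times (1.49 to 1.91). In Hoxb it was 0.905 (0.831 to 0.985) and 0.875 (0.794 to 0.962), and in Hoxc 1.02 (0.915 to 1.13) and 1.08 (0.962 to 1.20). The values of Hoxb and Hoxc depended on the flanks: with 500 kb on either side the Hoxb ratio in the Zfp322a library was 1.05 (0.956 to 1.14), and without TSS windows in the flanks no Hoxb interval lay below 1 and both Hoxc intervals lay above 1. The GC content of the surroundings was 43.3% at Hoxa, 41.6% at Hoxd, 46.8% at Hoxb and 45.9% at Hoxc, while the clusters held 48.9% to 50.01%, so the clusters with the higher ratios were those with the GC-poorer surroundings; the part of GC content in these ratios was not tested. At each cluster the ratios of the libraries lay within each other's intervals.

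At the Hox genes, bins of more than 55% GC held more reads than bins of less in both libraries, and the difference was larger at the housekeeping genes. In 500-bp bins of the Hox windows with a GC content of 45% to 55%, the mean was 1.83 Zfp322a and 1.67 IgG reads. In bins of 55% to 65% it was 2.65 and 2.84, and in bins of 65% or more 2.86 and 2.18. Housekeeping bins of the same classes held 4.50, 9.17 and 10.3 Zfp322a reads and 2.62, 4.67 and 5.21 IgG reads. At 65% or more, the fold was 1.23 (0.829 to 1.82) at the Hox genes and 1.84 (1.68 to 2.02) at the housekeeping genes. Bins farther than 1000 bp from any TSS had a fold that rose with GC content. It was 0.616 in the class from 28% GC and 1.09 in the class from 54%. A fold of 1 by library totals is therefore not the level of such bins at the median GC content of the Hox windows, 55.9%. When the reads expected for a bin were taken from bins of the same GC content farther than 1000 bp from any TSS, the Hox windows held 1.01 times the expected reads in the Zfp322a library (0.903 to 1.12) and 1.15 times in the IgG library (1.03 to 1.28). With smaller bins these values were 1.19 (1.07 to 1.32) and 1.35 (1.21 to 1.499), so whether the Zfp322a reads exceeded the expected number depended on the bin size. The housekeeping windows held 3.26 and 2.09 times, and the other homeobox genes 1.12 and 1.20 times. The IgG library thus was higher at housekeeping than at Hox promoters of like GC content, and the part of this in the Zfp322a values was not tested beyond the ratios of the libraries given above.

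**Figure D5:**
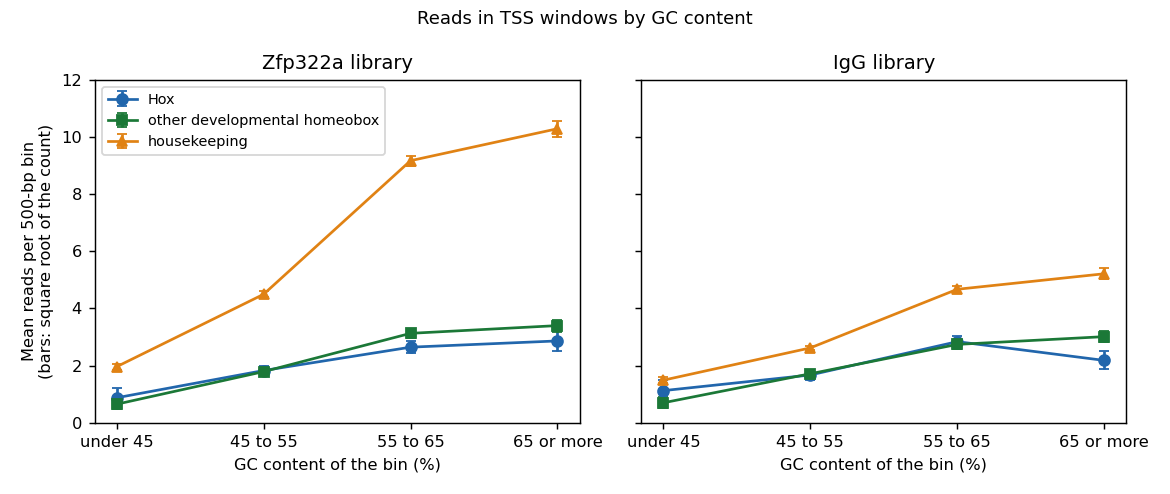
Mean reads per 500-bp bin of the TSS windows (y axis) by GC content of the bin (x axis, %), for the Hox, other developmental homeobox and housekeeping genes, the last 2 within the GC range of the Hox windows; bars are the square root of the count divided by the number of bins. In the Zfp322a library housekeeping bins of 65% or more reach 10.3 reads and Hox bins 2.86.

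Short sequences known from promoters were searched on both strands over 250 bases before to 50 bases after the TSS. The GC box (GGGCGG), which binds Sp factors, was present at 18 of 39 Hox genes (46.2%), against 64.3% of the housekeeping genes, 43.8% of the other protein-coding genes and 61.0% of the other developmental homeobox genes. The CCAAT box (CCAAT), which binds NF-Y, was present at 24 Hox genes (61.5%), against 33.3% and 37.4%, and at 58.5% of the other developmental homeobox genes. The letters ATGGCG were present at 2 Hox genes (5.13%), against 24.9% and 10.96%, and at 8.54% of the other developmental homeobox genes. The TATA box (TATAAA) was present at 4 Hox genes (10.3%), against 6.43% and 13.6%, and at 17.1% of the other developmental homeobox genes. In the promoters printed above, Hoxd11 holds 1 GC box, Hoxa3 holds 2 CCAAT boxes and Psmd3 holds 1 ATGGCG. CG dinucleotides ranged from 2 to 47 over the Hox promoters. These matches are counts of letters, and none of them was tested as a binding site.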

How the data were processed

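The authors sequenced sonicated ChIP DNA of E14 cells on the Genome Analyzer IIx and mapped 36-bp reads to mm9. The submitters' processing notes name CASAVA 1.4 and BWA, with no role given, and Partek 6.6, with which the authors detected peaks for an average fragment size of 300 bp. For each library the authors deposited mapped reads with a mapping quality score, and the reads inside numbered regions of their peak detection. From these files, the 5′ ends of reads with a score of at least 25 were counted around 1 TSS per gene (the protein-coding transcript with the longest coding sequence) in GENCODE vM1. Ties in coding length went to the transcript with the shortest span, so a window can lie at an internal start. With the most upstream protein-coding start instead, 13 of the 39 Hox starts moved. The genome copy used matched mm9 in chromosome names and lengths.

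Folds per read were divided by library totals, with exact conditional binomial (Clopper-Pearson) intervals. Ratios of folds have the exact conditional interval of the odds ratio. Each protein-coding window with at least 10 reads was tested by a two-sided exact binomial test with Benjamini-Hochberg adjustment. Stretches of 300-bp extended reads were joined when at most 300 bp apart, with an IgG height of 0 set to 1. The 1-Mb surroundings of Hoxc end with chromosome 15, and densities were taken over known bases. GC-expected reads were not corrected for mappability. Calculations used Python 3.11.15, numpy 2.4.6, pandas 2.3.3 and scipy 1.17.1, and were tested on simulated data. The members and lists were chosen with earlier results of these data known. Named genes were the 5 Hox windows with the most Zfp322a reads, the 5 with the most IgG reads, the 5 with the fewest reads, those past a call rule and the end genes of each cluster, and, of the other lists, the 3 windows with the most Zfp322a reads and the 3 with the highest fold; Skap2, Gm15050, the genes within 100 kb of a cluster, the RNA genes of the clusters and genes that make up small counts were added after their values were seen. A few items that this rule names are not reported here.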

Additional observations from a re-analysis of the deposited data

How the results depend on the processing

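No paired analysis was possible because each antibody has 1 library, and leaving out a replicate was likewise not possible. Under 17 alternatives (other mapping qualities, windows, start sites, scalings and clusters left out) the fold summed over the Hox windows ranged from 0.927 to 1.06, and its intervals held 1 in each. Under 18 alternatives the ratio to the housekeeping fold ranged from 0.532 to 0.677, with the highest value against the 171 housekeeping windows without a putative site. No Hox window held a putative site in 14 of 15 settings, and 2 of 39 did at a minimal height of 6 reads, where 16.9% of all protein-coding windows did. Settings with stricter limits, narrower windows or a cluster left out could only return 0, since no Hox window passed the main limits. The count of Hox windows with an adjusted p under 0.05 and IgG higher was 1 in the main setting and 0 with windows of -500 to +500 bp, with windows of -2000 to +2000 bp and at the most upstream start. The Hoxb fold, 1.18 by library totals, was 1.11 (0.977 to 1.25) when scaled by the reads of chromosome 11. The density of Hoxb against its surroundings was 0.905 in the Zfp322a library, 1.05 with flanks of 500 kb and 0.960 with flanks without TSS windows; in the IgG library it was 0.875, 0.974 and 0.910. That of Hoxc was 1.15 in the Zfp322a library with flanks without TSS windows, and 1.20 and 1.14 in the IgG library with flanks of 500 kb and without TSS windows, each with an interval above 1. With smaller bins the observed over GC-expected reads at the Hox windows were 1.19 in the Zfp322a library and 1.35 in the IgG library. The cause of these changes was not tested. Settings chosen after seeing the data were the housekeeping windows without a putative site, on the Hox chromosomes or within the CpG range, the Hox windows within the GC range only, and the exact test repeated under other settings. The alternative with bins of at most 20% soft-masked sequence was not run, since the genome copy holds 0 soft-masked bases, and fragment midpoints do not alter peak heights. Depth limits the single windows: Hoxa5, with 9 reads in each library, had an interval of 0.329 to 2.66 around its fold.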
